A study of Mus musculus with 87 samples.

Results

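The Dlk1-Dio3 cluster is an imprinted domain of mouse chromosome 12. Its 6 members studied here were found by symbol among the 25277 gene rows shared by all 10 count tables. They are the maternally expressed non-coding RNAs Meg3, Rian and Mirg and the paternally expressed genes Dlk1, Rtl1 and Dio3. In mm10 they span chr12:109452823-110281097, a stretch of 828 kb. The transcript counts came from 87 RNA-seq libraries in 31 groups. These covered androgenetic haploid embryonic stem cells, semi-cloned embryos and organs at embryonic day 18.5 (E18.5) and at postnatal day 1 (P1).

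Androgenetic haploid embryonic stem cells carry only a genome of sperm origin, and semi-cloning uses such a cell instead of a sperm to make an embryo from an oocyte. The haploid lines were labelled Dnmt WT (3 libraries), Dnmt TKO (3) and Dnmt STOP (2). Embryos and organs were labelled pWT, pIR or pTKO. The 2-cell stage had 4 pWT and 4 pIR libraries, the morula 3 and 4, and the blastocyst 4 and 4. At E18.5, batch 1 held 2 pWT and 2 pTKO libraries of each of brain, heart, kidney, liver and lung. Batch 2 held 4 pWT and 4 pIR libraries of each of heart and liver. At P1 there were 3 pWT and 2 pIR libraries of each of heart, kidney, liver and lung. The labels do not spell out pIR, STOP or the prefix p, and they give no strain, sex or number of haploid clones. Haploid lines for semi-cloning are often engineered to lack the imprinting control regions of this cluster and of H19. No label says whether the present lines carry such deletions. The labels do not say that libraries of a group came from separate animals or cultures, so the p-values measure the spread between libraries, which may be technical. Nor do they say whether different organs came from the same animals. Tests across organs took all libraries as separate, with no term for the animal.

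The domain is controlled by a germline-methylated region between Dlk1 and Meg3. On the chromosome inherited from sperm that region is methylated, Dlk1, Rtl1 and Dio3 are active and the non-coding RNAs are silent. On the maternal chromosome it is unmethylated and Meg3, Rian and Mirg are transcribed, in the same direction, as hosts of many microRNAs and small nucleolar RNAs. Loss of methylation on the paternal copy is known to give a maternal-like pattern, with more of the non-coding RNAs and less of the protein-coding genes.

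Dlk1 (chr12:109452823-109463336, plus strand) encodes a membrane protein related to Notch ligands. Meg3 (chr12:109541001-109571726, plus strand) is a long non-coding RNA. Rtl1 (chr12:109589193-109600330, minus strand) is a retrotransposon-derived Gag-like gene needed in placenta. A maternally expressed antisense RNA overlaps Rtl1, and since no source used here says that strand was used in counting, reads of both cannot be told apart. Rian (chr12:109603940-109661716, plus strand) hosts small nucleolar RNAs, and Mirg (chr12:109729764-109749460, plus strand) hosts microRNAs. Dio3 (chr12:110279068-110281097, plus strand) encodes the deiodinase that inactivates thyroid hormone.

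The 250 bases before the start of transcription are shown for 3 members, the 2 non-coding RNAs and the protein-coding gene called most often between genotypes. They come from RefSeq on GRCm38.p6, plus strand, and matches to TGCCGC (core of the motif bound by the imprint protector ZFP57) and TGACGTCA (cyclic AMP response element), searched on both strands, are in capitals.
Meg3, chr12:109540746-109540995: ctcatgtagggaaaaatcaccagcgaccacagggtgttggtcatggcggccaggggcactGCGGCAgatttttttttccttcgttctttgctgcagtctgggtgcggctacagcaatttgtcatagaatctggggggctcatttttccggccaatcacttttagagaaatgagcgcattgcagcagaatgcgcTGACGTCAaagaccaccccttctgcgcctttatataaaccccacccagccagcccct
Rian, chr12:109603695-109603944: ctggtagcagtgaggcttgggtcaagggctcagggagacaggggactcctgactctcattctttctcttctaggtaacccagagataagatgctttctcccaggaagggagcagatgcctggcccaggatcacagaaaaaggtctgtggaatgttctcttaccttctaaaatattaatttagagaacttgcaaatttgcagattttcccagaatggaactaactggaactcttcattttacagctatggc
Dlk1, chr12:109452573-109452822: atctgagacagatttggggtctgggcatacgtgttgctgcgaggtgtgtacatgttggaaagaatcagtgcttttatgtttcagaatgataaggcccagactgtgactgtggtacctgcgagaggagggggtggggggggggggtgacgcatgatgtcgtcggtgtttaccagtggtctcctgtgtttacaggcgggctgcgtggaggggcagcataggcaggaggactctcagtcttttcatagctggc
The printed Meg3 window held 10 CpG dinucleotides, the Dlk1 window 8 and the Rian window 0, beside a median of 6 over 32851 windows of this length. TGCCGC occurred once in the printed Meg3 window, as its reverse complement 190 bases before the start, and in 8.68% of all windows. TGACGTCA occurred once there, 57 bases before the start, and in 1.55% of all windows. The printed Rian and Dlk1 windows held neither string. RefSeq lists a second Meg3 start. Its window (chr12:109545148-109545397, not printed) held 0 CpG dinucleotides and neither string. Of the 6 members, 5 had an entry in the RefSeq table, and Rtl1 did not. A match is a string in a window and not a measured binding site.

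Depth allowed Meg3, Rian and Dlk1 to be followed through the organs, and Rtl1, Mirg and Dio3 less closely. Libraries held from 6.1 to 37.4 M (1e6) counts. Summed over all libraries, Meg3 had 543936 counts, Rian 245566, Dlk1 184926, Mirg 10572, Rtl1 2993 and Dio3 707. Meg3 was seen in every library, whereas Rian was at 0 in 8 libraries, Mirg in 11, Dlk1 and Rtl1 in 21 each and Dio3 in 35. The labelled tissues carried their own markers: the hepatocyte, cardiomyocyte, lung epithelium, kidney epithelium and neuron lists had their highest sums in the organs so labelled. In whole organs, fewer expressing cells and less RNA per cell cannot be told apart. One library stood apart for the cluster: the first E18.5 pTKO lung library had member levels on the side of the pWT lungs, so lung values are given with and without it. Levels are CPM, a gene's counts scaled to a library total of 1e6 counts. Fold changes are log2 values with standard errors from edgeR's quasi-likelihood test after TMM scaling, with Benjamini-Hochberg adjusted p over all genes tested, and a change was called at 0.05.

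Across the pWT organs of batch 1 at E18.5, Meg3 and Rian were highest in brain and Dlk1 was highest in lung. Meg3 CPM was 4950 and 4430 in the pWT brains, 287 and 403 in lung, and between 61.0 and 190 in heart, kidney and liver. Rian followed the same course, at 850 and 824 in brain and between 48 and 408 elsewhere. Dlk1 CPM was 990 and 1030 in lung, 318 and 310 in liver, 114 and 173 in heart, and between 27.0 and 51.6 in kidney and brain. In batch 2, pWT Meg3 was 191 to 275 CPM in heart and 288 to 355 in liver, and Dlk1 49.1 to 93.5 and 122 to 163. Per kilobase of exon, mean Meg3 in batch 1 pWT brain was 259 CPM per kb beside 6.5 for Dlk1, whereas in lung it was 19.1 beside 179. Thus the order of the best-measured maternally and paternally expressed member was opposite in these organs. All 6 members differed between the batch 1 pWT organs at E18.5 and all 5 tested differed at P1, where 85.2% and 94.7% of all genes tested were called as well.

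**Figure D1:**
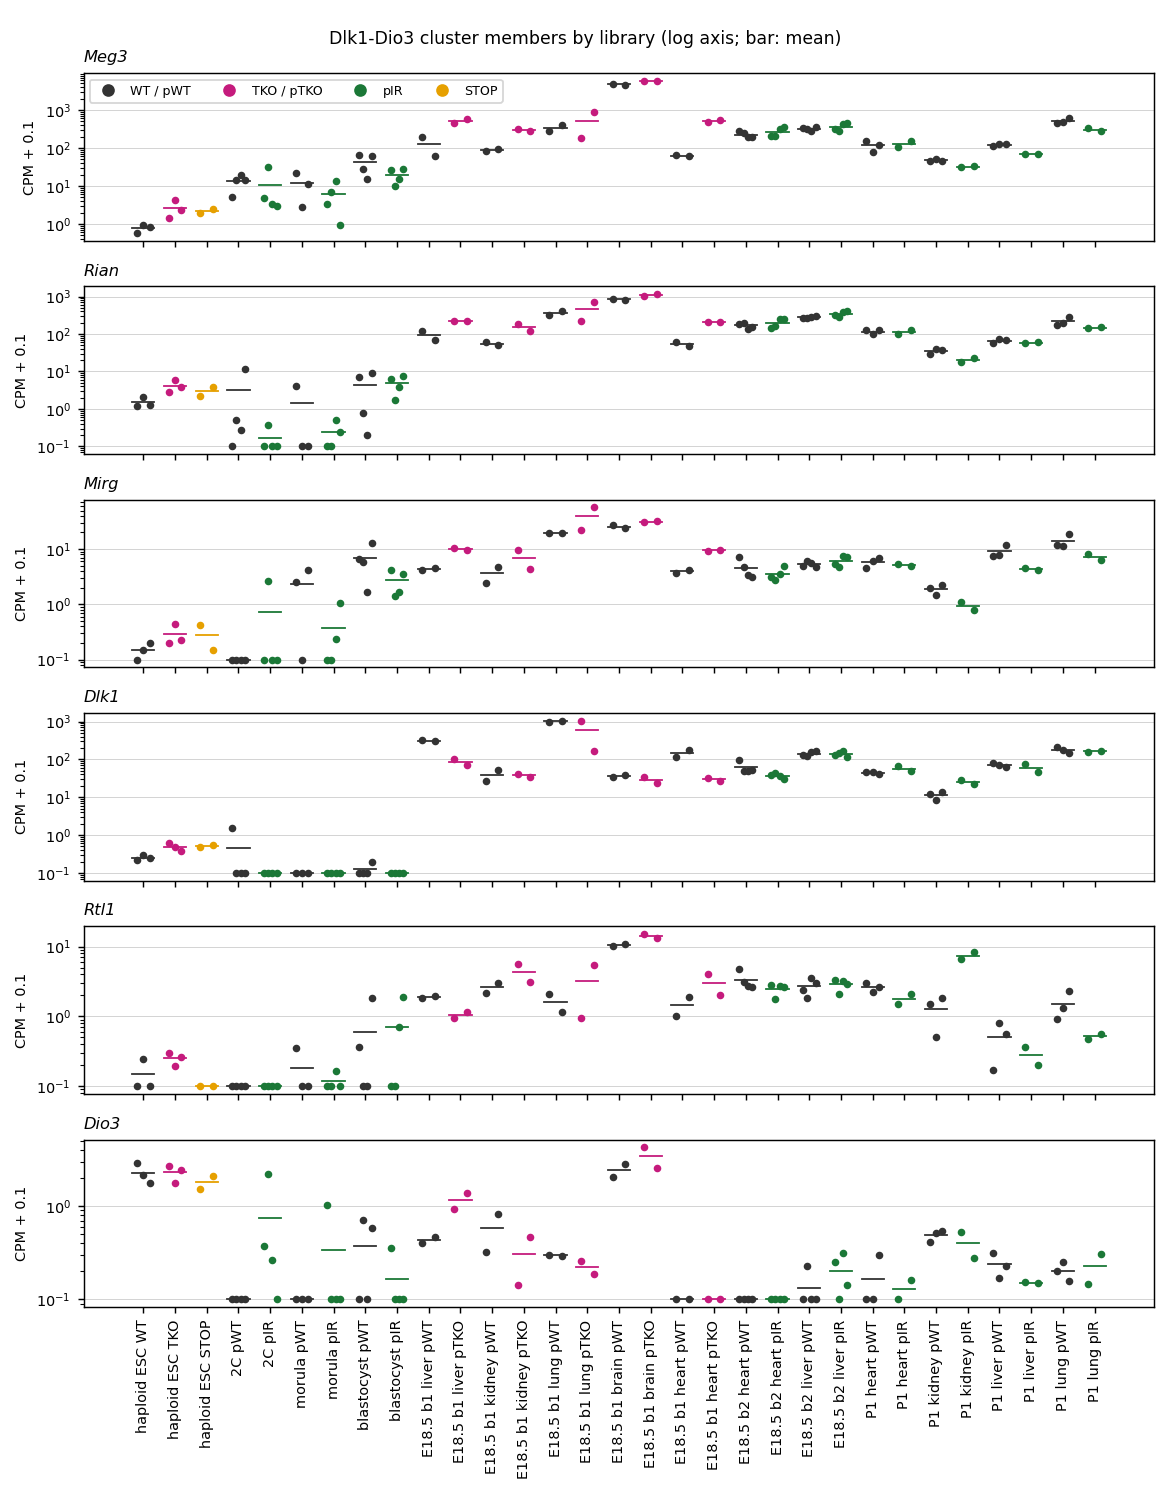
CPM plus 0.1 of each member in every library on a log axis, by group, with the group mean as a bar (b1 and b2 are the batches at E18.5). Meg3 and Rian peak in E18.5 brain, Dlk1 in E18.5 lung, and Dio3 is low outside haploid cells and brain.

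In the order of the 31 group means, few neighbours were apart by more than their spread, taken as the root of the summed squared SDs. Of 30 neighbouring pairs, 21 lay within the spread for Meg3, 20 for Rian, 26 for Mirg, 24 for Dlk1, 26 for Rtl1 and 29 for Dio3. The top of the Meg3 order was brain, at a mean CPM of 5770 in pTKO and 4690 in pWT, and its lowest group was WT haploid cells at 0.688 ± 0.191 (SD, n = 3). Rtl1 was highest in pTKO brain (14.2), pWT brain (10.5) and P1 pIR kidney (7.34). Dio3 was highest in brain, at 3.34 in pTKO and 2.37 in pWT, followed by haploid cells at 2.20 in TKO, 2.18 in WT and 1.73 in STOP, and in most other groups it was below 1 CPM. Over the 31 group means, which share tissues and scaling, Spearman's rho was 0.97 for Meg3 with Rian, 0.91 for Meg3 with Mirg and 0.69 for Meg3 with Dlk1. It was 0.43 for Dlk1 with Rtl1 and between -0.21 and 0 for Dio3 with the others.

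Candidates for likeness were 16314 genes outside the locus, leaving out symbols of predicted genes (Gm and digits, or ending in Rik). Among them, the 3 with the most similar pattern by that measure were Mir1906-2 (0.971), Slc1a2 (0.896) and Mindy2 (0.882) for Meg3. Mir1906-2 is uncertain, because its near-identical copy Mir1906-1 lies within Meg3. For Rian they were Mir1906-2 (0.953), Mindy2 (0.93) and St8sia4 (0.925). For Mirg they were Mir1906-2 (0.879), P2ry12 (0.83) and Disp2 (0.826). Dlk1 was most like Gbp2 (0.948), Cd44 (0.943) and Selenbp1 (0.939). Rtl1 was most like Fign (0.853), Thap2 (0.851) and Jpx (0.848), and Dio3 was most like Rab11fip4 (0.808), Pak1 (0.796) and Hook2 (0.787).

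The targeted genes were low in every library labelled Dnmt TKO. Dnmt1, the maintenance DNA methyltransferase, was 418, 421 and 425 CPM in WT and 70.4, 74 and 68.8 in TKO (-2.62 ± 0.07, adjusted p = 6.44e-07). The de novo methyltransferase genes fell as well, Dnmt3a from a mean of 68.8 to 11.3 CPM and Dnmt3b from 136 to 24.1 (adjusted p = 6.93e-06 for each). In STOP, Dnmt1 was 572 and 601 CPM, Dnmt3a 56.5 and 54.9, and Dnmt3b 128 and 122, so none was reduced as in TKO.

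In haploid cells every member was low, with somewhat more Meg3 and Rian in TKO than in WT. Meg3 lay between 0.477 and 0.849 CPM in the WT libraries and at 1.36, 4.09 and 2.29 CPM in the TKO libraries, from 27 to 86 reads each. Every TKO library was above every WT library. The fitted difference was 1.84 ± 0.45 (adjusted p = 0.0303), and Rian differed by 1.44 ± 0.39 (adjusted p = 0.0408), from a mean of 1.45 to 4.07 CPM. Dio3, the only paternally expressed member tested, was at 2.18 ± 0.572 CPM in WT and 2.20 ± 0.479 in TKO (SD, n = 3; adjusted p = 0.966). Dlk1 gave 9 reads in all WT libraries together and 25 in TKO, Rtl1 3 and 10, and Mirg 3 and 12, too few for the test. From these few reads Dlk1 too was higher, at 0.119 to 0.189 CPM in WT and 0.286 to 0.505 in TKO. In STOP it was 0.371 to 0.454, also above every WT library. Thus 2 of 3 members tested rose, beside 14.6% of all genes. Both calls were lost when only WT and TKO entered the fit (Meg3 adjusted p = 0.0544, Rian 0.0596), and without any one WT library or the second TKO library (Meg3 adjusted p from 0.0801 to 0.117, Rian 0.0645 to 0.156).

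STOP cells had mean Meg3 and Rian levels between those of WT and TKO. Meg3 was 2.14 ± 0.402 CPM and Rian 2.98 ± 1.14 (SD, n = 2), all above the WT libraries. Against WT, Meg3 differed by 1.52 ± 0.50 (adjusted p = 0.0548) and Rian by 0.93 ± 0.43 (adjusted p = 0.137). With edgeR 0 of 3 members were called (1 at an unadjusted p under 0.05, 1 by DESeq2), beside 23.1% of all genes. A fit of only STOP and WT called both, with adjusted p of 0.00203 for Meg3 and 0.0257 for Rian. Against TKO, 0 of 3 were called by edgeR (0 unadjusted, 0 by DESeq2), beside 0.0401% of all genes. The trophectoderm marker sum was 106 to 141 CPM in TKO and 126 to 145 in STOP beside 56.6 to 62.3 in WT, with 1 of 5 markers higher in every library of either, and 2 lower in TKO and 3 in STOP. The pluripotency sum was 2850 to 3710 CPM in TKO and 3030 to 3060 in STOP beside 3520 to 3770 in WT, and the part of these differences was not tested. Maternally expressed members made up 47.7% ± 10.6 of the cluster's counts in WT, 69.1% ± 13.4 in TKO and 71.2% ± 0.698 in STOP, and neither mutant overlapped WT. TKO and WT nearly met, however. The highest WT library was at 54.9% and the lowest TKO library at 55.8%, from 113 and 147 cluster reads.

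Of the lists around the cluster in TKO, 7 of 16 Notch pathway genes tested rose and 1 fell, with a median log2 change of 1.24 beside 0.01 over all genes. Among them the ligand gene Jag1 rose from 18.7 to 50 CPM (1.37 ± 0.19, adjusted p = 0.00387) and the receptor gene Notch1 from 26.3 to 58.8 CPM (1.10 ± 0.12, adjusted p = 0.00184). Of 8 genes flanking Dlk1, 1 rose and 1 fell, and of 12 beyond Dio3, 3 rose and 2 fell. Of all genes tested, 14.6% were called in TKO. In STOP against WT, 8 of the 16 Notch pathway genes rose and 2 fell (median 1.07), beside 23.1% of all genes.

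In early embryos most of the cluster's counts were Meg3, and no member was called between pIR and pWT. At the 2-cell stage Meg3 was 13.3 ± 6.06 CPM in pWT and 10.7 ± 14 in pIR (SD, n = 4), and the pIR mean was raised by 1 library at 31.7. In the morula it was 12 ± 9.77 (SD, n = 3) and 6.08 ± 5.49 (SD, n = 4). In the blastocyst the pWT libraries held 63.5, 27.6, 15.6 and 59.8 CPM and the pIR libraries 26.1, 10, 15.2 and 27.9. The groups overlapped at each stage. The blastocyst difference was -0.88 ± 0.40 (adjusted p = 0.161), and that of Mirg, from 6.69 ± 4.75 to 2.63 ± 1.36 CPM, was -1.15 ± 0.66 (adjusted p = 0.276). Rian was 4.2 ± 4.5 and 4.68 ± 2.52 CPM there.

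By edgeR, 0 of 1 member tested was called at the 2-cell stage (0 unadjusted, 0 by DESeq2), 0 of 2 in the morula (0 and 0) and 0 of 3 in the blastocyst (1 and 0). Of all genes, 0% were called at the 2-cell stage (0 genes by edgeR, 235 at an unadjusted p under 0.05, 8 by DESeq2), 0.136% in the morula and 10.6% in the blastocyst. The pIR effect on no member differed between blastocyst and morula by edgeR (0 of 3, 0 unadjusted; all genes 0%, 1101 genes unadjusted). Among pWT embryos, Meg3 in blastocysts against morulae was 1.51 ± 0.64 (adjusted p = 0.108), where 25.2% of all genes but 0 of 3 members were called (1 unadjusted). Without the first pWT morula it was 2.23 and called (adjusted p = 0.0461). Morulae against 2-cell embryos gave -0.75 ± 1.01 (adjusted p = 0.618), where 32.6% of all genes but 0 of 1 member were called (0 unadjusted). These embryo comparisons rest on 11 pWT columns whose headers do not say pWT but carry a name that no label explains. They were matched to their samples by stage and number, and taken as pWT by elimination.

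Dlk1 was hardly detectable before implantation. It had 0 reads in every morula library, which allows up to 0.0828 CPM in pWT and 0.0521 CPM in pIR over the group, 0 reads in pIR 2-cell embryos and blastocysts, and 1 read in all pWT blastocysts. One pWT 2-cell library held all 16 Dlk1 reads of that group. The limits and intervals cover counting error only.

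At E18.5, Meg3 and Rian rose in pTKO heart and brain, and in heart Mirg rose and Dlk1 fell as well. Meg3 in heart was 64.3 and 61.0 CPM in pWT and 478 and 552 in pTKO. Rian was 61.4 and 48 against 213 and 209, and Mirg was 3.53 and 4.15 against 9.24 and 9.45. Dlk1 went the other way, from 114 and 173 to 32.6 and 27.0 CPM. For each of the 4 genes the groups lay apart. Meg3 rose by 2.96 ± 0.14, Rian by 1.86 ± 0.17 (adjusted p = 0.0165 for both) and Mirg by 1.21 ± 0.23 (adjusted p = 0.0277), whereas Dlk1 fell by 2.34 ± 0.21 (adjusted p = 0.0165). Rtl1 was 0.906 and 1.79 against 3.91 and 1.91 CPM (1.04 ± 0.56, adjusted p = 0.214). Dio3 had 0 reads in these hearts, which allows up to 0.075 CPM in pWT and 0.0834 in pTKO. The Mirg call was lost with the replicate numbers as a block (adjusted p = 0.0548) and with all organs in one fit (adjusted p = 0.111). So 3 members rose and 1 fell of 5 tested, beside 26.8% of all genes called.

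The heart calls need both pTKO libraries and were lost without either one. With 1 library left out in turn, Meg3 ranged from 2.85 to 3.11 and Dlk1 from -2.57 to -2.09. Each such fit leaves 1 group with 1 library. The erythroid marker sum was 887 to 1760 CPM in pTKO and 2750 to 2900 in pWT hearts, with 5 of 6 markers lower in every pTKO library, and the cardiomyocyte sum was 61000 to 66000 against 54200 to 58600. Their part in the result was not tested.

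Other rows of the locus and some genes of the lists around it were called in heart as well. Mir1906-1, a microRNA row inside Meg3, rose from 4.85 to 39.7 CPM (2.95 ± 0.19) and AF357359, another small RNA row of the domain, from 3.26 to 16.9 CPM (2.30 ± 0.21, adjusted p = 0.0165 for both). Reads of such rows and of their host RNA cannot be told apart here. Outside the domain, 1 of 8 genes before Dlk1 fell (Wars, -0.41), and of 11 beyond Dio3, Hsp90aa1 rose (2.28) while Ankrd9 (-0.77) and Cinp (-0.57) fell. Of 13 genes that set or keep the methylation mark, 4 rose and 2 fell (median 0.25 beside 0.01 over all genes). Zfp445, which protects imprints, rose from 18.8 to 147 CPM (2.87 ± 0.42, adjusted p = 0.0207), its partner in that role Zfp57 from 6.59 to 19.5 CPM (1.48 ± 0.22, adjusted p = 0.0205), and Dnmt1 fell from 140 to 79.1 CPM (-0.91 ± 0.20, adjusted p = 0.0351). Of 10 genes of Polycomb repressive complex 2, 5 rose and 1 fell (median 0.54), among them Suz12 from 21.2 to 87.2 CPM (1.95 ± 0.34, adjusted p = 0.0251). Against the same batch 1 pWT hearts, batch 2 pWT hearts had 7 of these 10 Polycomb genes higher and 1 lower (median 0.87), and 7 of the 13 methylation mark genes higher and 1 lower (median 0.41). Of all genes, 65% were called in that batch comparison and 26.8% in pTKO heart. Dio2, which activates thyroid hormone, rose from 3.63 to 22.9 CPM (2.59 ± 0.23, adjusted p = 0.0165), 1 of 2 risers among 11 thyroid hormone genes, of which 1 fell. Of 18 Notch pathway genes, 2 rose and 1 fell (median -0.01).

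**Figure D2:**
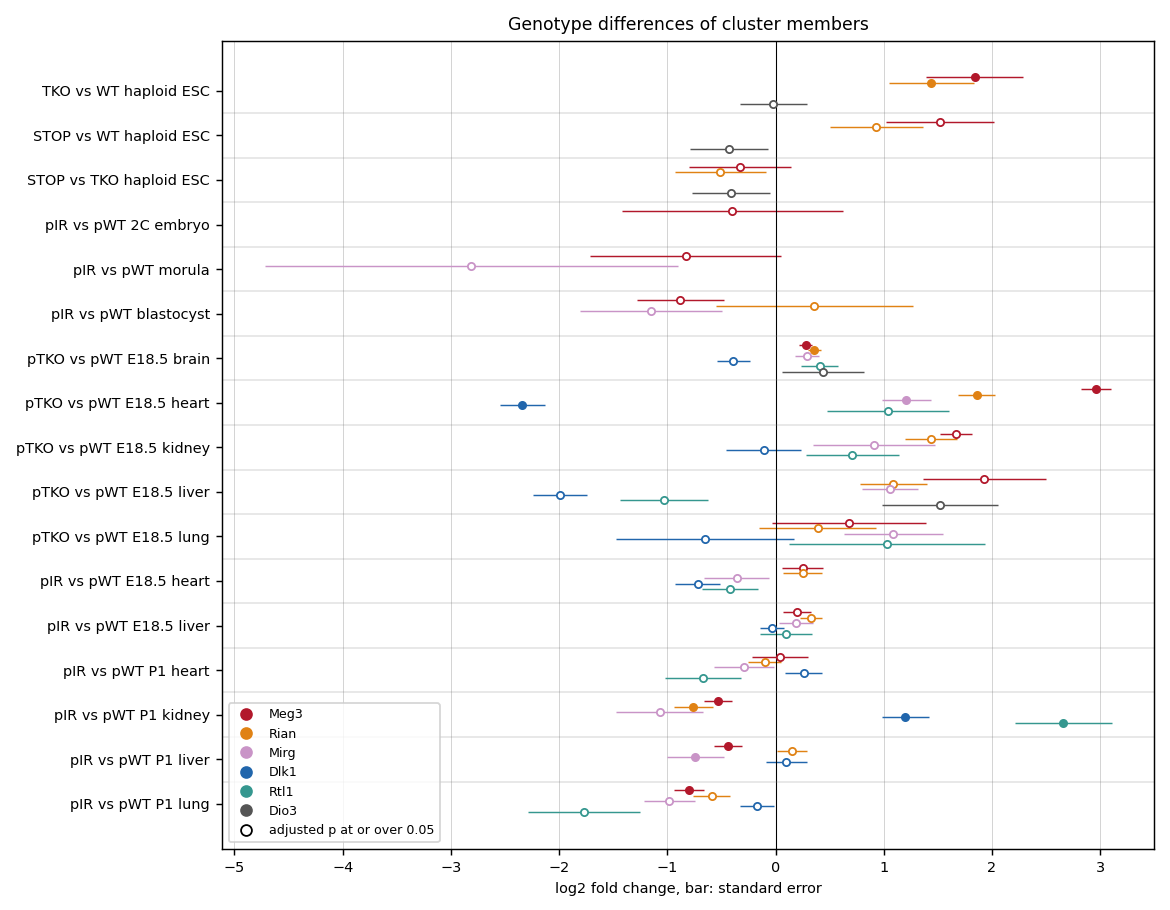
Log2 fold change of each tested member with its standard error in 17 genotype comparisons, filled where the adjusted p was under 0.05. In pTKO heart Meg3, Rian and Mirg lie right of 0 and Dlk1 left. In P1 pIR kidney each of these lies on the other side, while Rtl1 lies right of 0 in both.

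In brain, where Meg3 was already abundant, the rise was small but called. Meg3 went from 4950 and 4430 to 5710 and 5830 CPM (0.28 ± 0.06, adjusted p = 0.0293) and Rian from 850 and 824 to 1010 and 1160 (0.36 ± 0.06, adjusted p = 0.0151). Dlk1 was 34.9 and 38.6 against 34.4 and 23.3 CPM (-0.39, adjusted p = 0.211), Rtl1 9.99 and 10.9 against 15.1 and 13.3, and Dio3 1.96 and 2.77 against 4.2 and 2.47. The pTKO libraries were higher for Rtl1 in both and overlapped pWT for Dio3. Of 6 members 2 rose, beside 1.75% of all genes. In a fit of all 5 organs together, neither brain call was kept (adjusted p = 1 for both). The erythroid sum was 533 to 621 CPM in pTKO and 880 to 1050 in pWT brains, and its part was not tested. In this organ Dnmt1 fell from 246 to 144 CPM (-0.79 ± 0.06, adjusted p = 4.26e-05) and Dnmt3a from 243 to 153 CPM (-0.69 ± 0.06, adjusted p = 0.000115), 2 of 3 genes that fell among 13 of the methylation mark.

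Kidney and liver had large differences of the same kind for Meg3 and Rian that edgeR did not call. In kidney, Meg3 was 85.2 and 95.4 CPM in pWT and 323 and 272 in pTKO (1.67 ± 0.15, adjusted p = 0.346), and Rian was 59.4 and 51.7 against 188 and 123. Dlk1 overlapped, at 27.0 and 51.6 against 40.7 and 34.7 CPM (-0.11 ± 0.35, adjusted p = 0.872). In liver, Meg3 was 190 and 62.5 against 467 and 571 CPM (1.93 ± 0.57) and Dlk1 318 and 310 against 100 and 72.3 (-1.99 ± 0.25, adjusted p = 0.621 for both). Without the first pWT liver the Meg3 difference was 2.89, and without the second it was 1.35. The pTKO libraries lay apart from pWT in each of these except kidney Dlk1. Liver Rtl1 was 1.72 and 1.84 against 0.841 and 1.06 CPM, liver Dio3 0.302 and 0.368 against 0.841 and 1.29, and its antisense neighbour Dio3os 1.21 and 0.819 against 8.07 and 6.45 (2.72 ± 0.38, adjusted p = 0.621). Since strand use in counting is not known, Dio3 and Dio3os reads cannot be told apart where they overlap.

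By edgeR, 0 of 5 members were called in kidney (2 unadjusted, 2 by DESeq2: Meg3 and Rian) and 0 of 6 in liver (5 unadjusted, 1 by DESeq2: Dlk1). Of all genes, 0% were called in either (0 genes; 2374 unadjusted and 353 by DESeq2 in kidney, 642 and 60 in liver). With 1 library left out in turn, Meg3 in kidney ranged from 1.55 to 1.78 and Dlk1 in liver from -2.27 to -1.78. Each such fit leaves 1 group with 1 library, so its calls are no test and are not given here. In kidney the epithelium sum was 1610 to 1690 CPM in pTKO and 2160 to 3790 in pWT, with 5 of 6 markers lower. The neuron sum there was 4.68 to 42.4 CPM in pTKO and 3.64 to 5.13 in pWT, with overlap. Their part was not tested.

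The pTKO lungs differed from each other for every member tested. Meg3 was 287 and 403 CPM in pWT and 186 and 870 in pTKO, and Dlk1 was 990 and 1030 against 1060 and 166. Rian (221 and 699), Mirg (22.1 and 56.9) and Rtl1 (0.856 and 5.27) were split between the pTKO libraries in the same way. By edgeR, 0 of 5 members were called (0 unadjusted, 0 by DESeq2), beside 0% of all genes (0 genes, 488 unadjusted, 13 by DESeq2). Without the first pTKO library, Meg3 was 1.39 and Dlk1 was -2.55. That library was singled out by the members' own levels, so these values are no test of the members. Without the second, Meg3 was -0.83 and Rian was -0.67. Each of these fits leaves pTKO with 1 library, which is taken to vary as the pWT lungs do, so no p-values are given.

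The maternal share of the cluster's counts gave one number for this shift. It was 46.1% ± 9.58 in pWT and 95.7% ± 0.944 in pTKO heart, 40.1% ± 13.6 and 89.4% ± 3.0 in liver, and 78.3% ± 7.13 and 91.6% ± 0.39 in kidney (SD, n = 2). Groups lay apart in these organs. In brain it was 99.1% ± 0.129 and 99.3% ± 0.166 (SD, n = 2), close to the ceiling. There the groups met at 99.2% after rounding, and the difference of 0.218 points was about its spread of 0.21. In lung it was 41.7% ± 4.03 in pWT, and 28.8% and 90.5% in the pTKO libraries. The pTKO effect was not called as different between organs for any of 6 members by edgeR (Meg3 adjusted p = 0.225, Dlk1 0.245; 1 member unadjusted), beside 0.0106% of all genes. Leaving out the second pTKO lung library, 3 members were called there, and leaving out the first pWT liver library, 1.

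**Figure D3:**
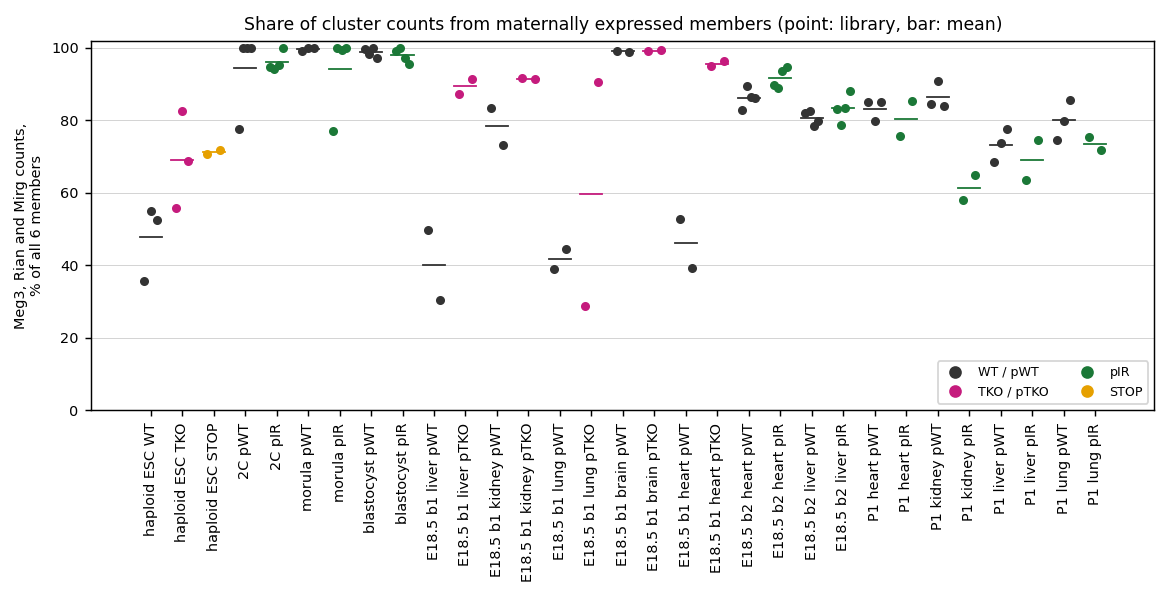
Percent of the 6 members' counts that fell on Meg3, Rian and Mirg in each library, by group, with the mean as a bar. pWT heart, liver and lung of E18.5 batch 1 lie near 40 to 46%, below the pWT organs of batch 2 and P1.

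The pWT hearts and livers differed between the batches for this cluster. Meg3 in batch 2 pWT hearts was 275, 241, 191 and 192 CPM, above both batch 1 pWT hearts and below both pTKO hearts. Against batch 1 it was higher by 1.81 ± 0.18 (adjusted p = 9.08e-05), Rian by 1.6 ± 0.20 (adjusted p = 0.00024) and Rtl1 by 1.24 ± 0.41 (adjusted p = 0.0296). Dlk1, at 93.5, 49.1, 49.3 and 52.9 CPM, was lower by the log2 change of -1.25 ± 0.28 (adjusted p = 0.00532). Without the first batch 1 heart the Rtl1 call was lost (adjusted p = 0.147). In liver, Meg3 was 321 ± 29.4 CPM and Dlk1 142 ± 20.8 in batch 2 (SD, n = 4), with differences of 1.28 ± 0.41 (adjusted p = 0.0474) and -1.23 ± 0.15 (adjusted p = 0.00683), and Rian differed by 1.47 ± 0.23 (adjusted p = 0.00917). The liver Meg3 call was lost without any one batch 2 library (adjusted p from 0.09 to 0.104), and the difference was 2.26 without the first batch 1 pWT liver and 0.70 without the second.

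So 4 of 5 members were called between batches in heart (3 higher, 1 lower) and 3 of 5 in liver (2 higher, 1 lower), beside 65% and 39.5% of all genes. This comparison was added after the data were seen. Batch and any other difference between those libraries cannot be told apart. The mesenchyme sum was 2300 to 3360 CPM in batch 2 and 3940 to 4070 in batch 1 hearts, and its part was not tested. The batch 1 pWT hearts are the reference here and in the pTKO comparison: Meg3 was 1.81 here and 2.96 there, and Dlk1 was -1.25 here and -2.34 there.

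**Figure D4:**
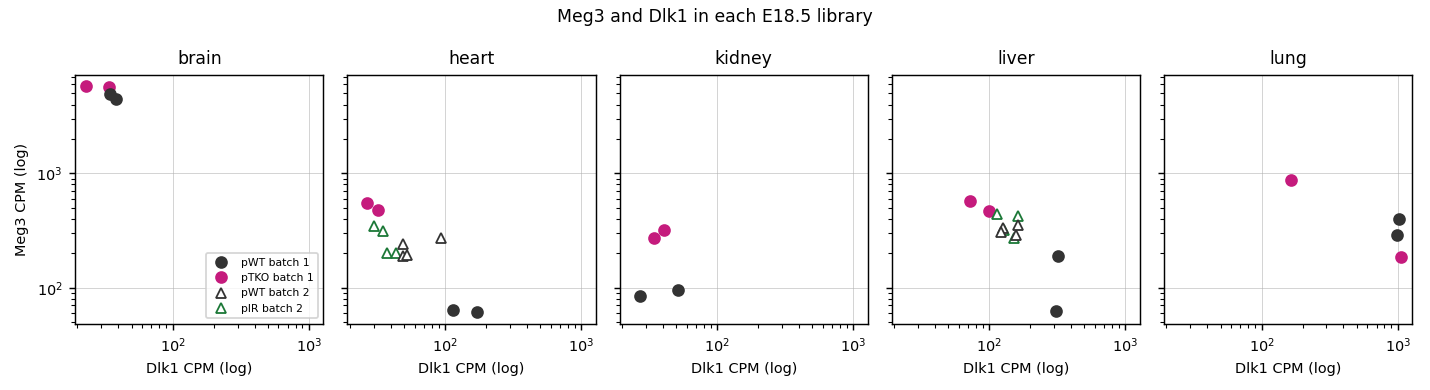
Meg3 CPM against Dlk1 CPM in each E18.5 library, by organ, on log axes, with batch 1 as circles and batch 2 as triangles. In heart and liver the batch 2 pWT libraries lie between the pWT and pTKO libraries of batch 1 on the Meg3 axis.

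Within batch 2, no member was called between pIR and pWT organs. Heart Meg3 was 225 ± 41.0 CPM in pWT and 266 ± 74.4 in pIR (SD, n = 4; 0.25 ± 0.19, adjusted p = 0.841), and Rian was 170 ± 29.3 and 201 ± 55.3. Dlk1 in pIR hearts was 37.9, 43.9, 35.4 and 30.3 CPM, below every pWT heart (-0.72 ± 0.21, adjusted p = 0.818). In liver, Rian was 281 ± 17.7 and 352 ± 55.3 CPM (0.33 ± 0.10, adjusted p = 0.691) and Dlk1 142 ± 20.8 and 139 ± 22.2 (-0.03 ± 0.11). By edgeR, 0 of 5 members were called in heart (1 unadjusted, 0 by DESeq2) and 0 of 5 in liver (1 and 0). Of all genes 0.0137% were called in heart and 0% in liver (0 genes, 813 unadjusted, 11 by DESeq2). The pIR effect on 0 of 5 members differed between liver and heart (1 unadjusted), beside 0.00622% of all genes. Maternal shares were 86.3% ± 2.74 and 91.7% ± 2.92 in heart and 80.8% ± 1.97 and 83.3% ± 3.81 in liver, and they overlapped.

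At P1, pIR kidney had less of the maternally expressed RNAs and more of Dlk1 and Rtl1 than pWT. For Meg3, Rian, Mirg and Dlk1 the sense was opposite to that in E18.5 pTKO heart. Rtl1 was higher in both, at 1.04 in pTKO heart without a call. Dlk1 in E18.5 pTKO kidney was -0.11, with overlap. Meg3 was 45.8, 52.3 and 44.2 CPM in pWT and 30.9 and 32.7 in pIR, and Rian was 29.5, 40.4 and 37.3 against 18.2 and 22.7. Dlk1 was 12.3, 8.55 and 13.9 against 29.2 and 22.2 CPM. Rtl1 was 1.42, 0.41 and 1.75 against 6.51 and 8.17 CPM, from 62 reads in all pWT and 246 in all pIR libraries. The groups lay apart for each of these. Meg3 fell by 0.53 ± 0.13 (adjusted p = 0.0419) and Rian by 0.76 ± 0.18 (adjusted p = 0.0398). Dlk1 rose by 1.20 ± 0.22 (adjusted p = 0.0179) and Rtl1 by 2.66 ± 0.45 (adjusted p = 0.0144). Mirg was -1.07 ± 0.40 (adjusted p = 0.118), and Dio3 had 20 reads in pWT and 10 in pIR.

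Of 5 members, 2 rose and 2 fell, beside 10.6% of all genes called. The maternal share was 86.5% ± 3.88 in pWT (SD, n = 3) and 61.4% ± 4.72 in pIR (SD, n = 2), with no overlap. No member was called without the first pWT or the first pIR kidney library, and 2 were called without the second of either. Meg3 then had adjusted p from 0.0626 to 0.171, and 0.121 with all 4 organs in one fit. The kidney epithelium sum was 2360 to 2410 CPM in pIR and 865 to 1030 in pWT kidneys, with 4 of 6 markers higher, and the mesenchyme sum was 3090 to 3280 against 1930 to 2200, with 5 of 6 higher. The adrenal sum was 11.4 to 14.6 against 16.7 to 19.6 CPM, with Cyp11b1 and Cyp21a1 at 0. The part of these cells in the result was not tested. Outside the domain, 1 of 8 genes before Dlk1 fell (Degs2, -0.43), and 1 of 11 beyond Dio3 rose (Dync1h1, 0.43). Of 19 Notch pathway genes, Notch3 (0.56) and Hey2 (0.84) rose and none fell (median 0.16 beside -0.01 over all genes). Of 11 thyroid hormone genes, the transporter gene Slc16a10 (0.72) and the receptor gene Thrb (1.03) rose, and Crym, which binds the hormone in the cytosol, fell (-0.98).

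In P1 lung and liver Meg3 fell while Dlk1 was not called. Lung Meg3 was 458, 481 and 621 CPM in pWT and 339 and 273 in pIR (-0.80 ± 0.14, adjusted p = 0.0284). Rian, at 173, 198 and 277 against 143 and 151 CPM (-0.59 ± 0.17, adjusted p = 0.106), and Mirg, at 11.6, 11.4 and 19 against 8.18 and 6.31 (-0.98 ± 0.24, adjusted p = 0.0729), were lower in every pIR lung. Dlk1 was 216, 174 and 151 against 160 and 169 CPM (-0.17), and Rtl1 was -1.77 ± 0.52 (adjusted p = 0.112) from 80 and 17 reads. Mir1906-1 inside Meg3 fell as well, from 41.9 to 23.3 CPM (-0.88 ± 0.15, adjusted p = 0.0247). Thus 1 of 5 members fell, beside 2.6% of all genes, and without either pIR lung none was called (Meg3 adjusted p = 0.107 and 0.255). With the replicate numbers as a block, or by DESeq2, 3 members were called, and with all 4 organs in one fit none was (Meg3 adjusted p = 0.0753). In pIR lungs the erythroid sum was 8490 to 11300 CPM beside 17400 to 27200 in pWT, and the mesenchyme sum 4330 to 5740 beside 2390 to 3080; their part was not tested.

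Liver Meg3 was 112, 125 and 131 CPM in pWT and 71.3 and 71.0 in pIR (-0.44 ± 0.13, adjusted p = 0.0207), and Mirg was 7.51, 7.84 and 11.9 against 4.48 and 4.07 (-0.74 ± 0.26, adjusted p = 0.0373). Rian (0.15, adjusted p = 0.437) and Dlk1 (0.10, adjusted p = 0.691) were not called, and their direction turned with the scaling: on plain totals mean CPM was lower in pIR, at 58.1 beside 66.4 for Rian and 60.7 beside 71.3 for Dlk1. So 2 of 4 members fell, in an organ where 39.2% of all genes were called. Neither call was kept with the replicate numbers as a block, with all 4 organs in one fit, without the third pWT or without the first pIR library. The erythroid sum was 15600 to 23800 CPM in pIR and 55800 to 69600 in pWT livers, with 6 of 6 markers lower, and the hepatocyte sum was 75400 to 91600 against 36500 to 46800. Their part was not tested. Among 12 thyroid hormone genes of the liver, 7 rose and 1 fell (median 1.09 beside -0.03 over all genes). Dio1, a deiodinase of liver that activates the hormone, rose from 0.798 to 10.5 CPM (4.06 ± 0.40, adjusted p = 1.44e-05). Dio3 itself had 6 reads in pWT and 2 in pIR livers. Of the other clusters methylated in sperm, Igf2 rose from 3350 to 10500 CPM (1.99 ± 0.17, adjusted p = 5.54e-06) and H19 by 0.70 ± 0.21 (adjusted p = 0.0194), while Zdbf2 fell (-3.32 ± 0.81, adjusted p = 0.00637).

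In P1 heart no member was called. Meg3 was 119 ± 38.1 CPM in pWT (SD, n = 3) and 130 ± 36.2 in pIR (SD, n = 2), Rian 116 ± 14.4 and 116 ± 21.8, and Dlk1 44.8 ± 2.78 and 57.2 ± 12.7 (0.26 ± 0.17, adjusted p = 0.384). By edgeR 0 of 5 were called (0 unadjusted, 0 by DESeq2), beside 2.32% of all genes. The maternal share was 83.2% ± 3.05 and 80.5% ± 6.81. The mesenchyme sum was 5260 to 7730 CPM in pIR and 2260 to 3070 in pWT hearts. The cardiomyocyte sum was 33300 to 36000 against 39400 to 49300, and the part of these cells was not tested.

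The pIR effect at P1 differed between organs for 3 of 5 members, Rtl1 (adjusted p = 0.0019), Dlk1 (adjusted p = 0.0154) and Rian (adjusted p = 0.0427), but not by that test for Meg3 (adjusted p = 0.14) or Mirg (adjusted p = 0.445). Of all genes tested, 25.3% were called. Rtl1 rose by 2.66 in kidney and was -0.67 in heart and -1.77 in lung, Dlk1 rose by 1.20 in kidney and was between -0.17 and 0.26 elsewhere. Rian fell in kidney, and in liver it was 0.15 after TMM scaling but lower in pIR by mean CPM. Leaving out single libraries gave between 1 and 4 members in this test. The lowest count came without the first pIR kidney library (Dlk1 adjusted p = 0.102, Rian 0.1). The Rian call was also lost without pWT heart 3, pIR heart 2, pWT kidney 2 or 3, pWT liver 1 or 3, either pIR liver or either pIR lung (adjusted p from 0.0532 to 0.11).

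**Figure D5:**
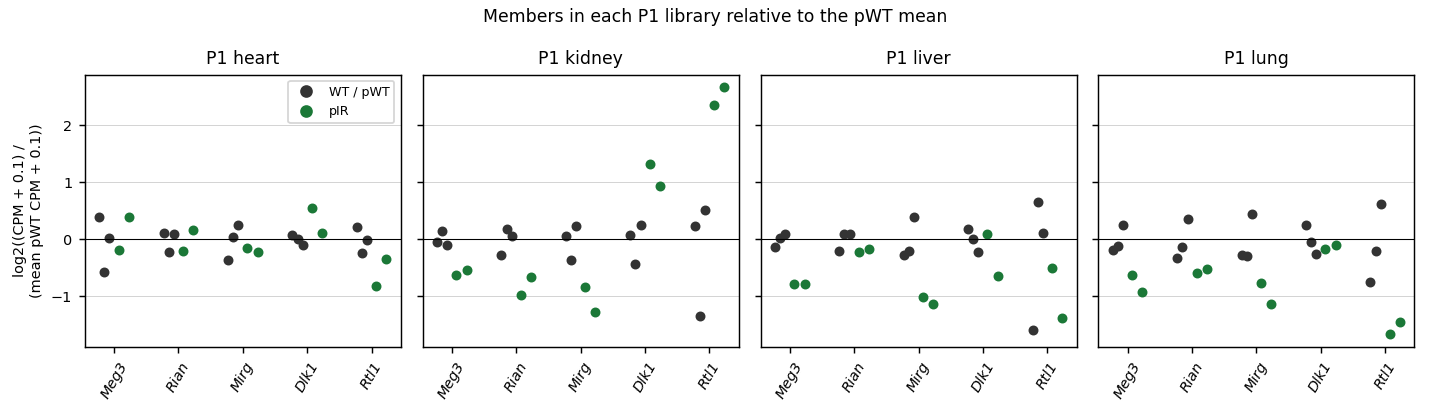
Log2 ratio of each P1 library's CPM plus 0.1 to the pWT mean plus 0.1, for 5 members in 4 organs. In kidney the pIR libraries lie above the pWT libraries for Dlk1 and Rtl1 and below them for Meg3, Rian and Mirg.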

How the data were processed

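Poly(A) RNA of 87 mouse libraries was sequenced. The authors deposited 10 tables of raw counts per gene, made with Trim Galore 0.6.6, HISAT2 2.1.0, featureCounts 1.6.4 and mm10, per the submitters' processing notes. Those notes also list DESeq2. Strand and multimapping settings are not given in the sources used here. The protocol describes a poly(A) kit and a low-input Smart-Seq2 kit without naming the libraries of each. Columns were matched to samples by label, except 11 pWT embryo columns matched by stage and number. The headers of those 11 carry an unexplained name in place of pWT, so they were taken as pWT by elimination. Member positions come from GENCODE M21.

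CPM used plain library totals, and kilobases are of merged exons. Tests used edgeR 4.0.16 in R 4.3.3 (TMM, filterByExpr with a minimum count of 10, quasi-likelihood F test, Benjamini-Hochberg at 0.05). Alternatives were a replicate block, no filter on low counts, size factors by median of ratios, DESeq2 1.42.0, other samples in the fit, totals without haemoglobin genes, and each library left out. The batch comparison and crossed pairing were added after seeing the data. The fits were tested on simulated data. Limits for a count of 0 take 3 counts over the group's total.

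The members and lists were chosen with earlier results of these data known. Named were the members, rows of the locus with at least 1000 counts, called flanking genes, up to 4 called genes per list, the 3 genes most alike to each member among those reaching 5 CPM, and the Dnmt genes.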

Additional observations from a re-analysis of the deposited data

Results flagged for a closer look

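The range of each of 39 sets of values from groups of 4 to 10 libraries was searched for a single value standing far from the rest, which chance gives in about 1 in 20 groups, and 6 were found. They were Meg3 at 31.7 CPM in the second pIR 2-cell library, Mirg at 0.966 CPM in the fourth pIR morula library, Dlk1 at 93.5 CPM in the first batch 2 pWT heart and Rtl1 at 1.65 CPM in the second batch 2 pIR heart. The maternal share was 77.5% in the first pWT 2-cell library and 77.1% in the first pIR morula library. The other libraries of those groups lay between 99.5% and 100%, the ceiling of a share. The rate of 1 in 20 therefore does not apply to these shares. In the test of whether the pIR effect differed between P1 organs, edgeR gave adjusted p of 0.0019 for Rtl1, 0.0154 for Dlk1 and 0.0427 for Rian.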

How the results depend on the processing

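Under alternatives that kept every library, 467 single-gene values kept their direction and call, 13 gained a call, 12 lost one and 1 reversed, Dlk1 in P1 liver at -0.03 with the replicate block. The count of members called moved from 2 to 0 in TKO against WT with 2 genotypes in the fit. In STOP against WT it was 1 with DESeq2 or the replicate block and 2 with 2 genotypes. In E18.5 brain it was 0 with all organs in one fit, and with DESeq2 it was 2 in E18.5 kidney and 1 in E18.5 liver. In P1 liver it was 0 with the replicate block or all organs. In P1 lung it was 3 with DESeq2 or the replicate block, 2 with no filter and 0 with all organs. The causes were not tested.

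The correlation of same-numbered libraries' deviations ran from -0.34 to 0.23. In comparisons with 3 or 4 such pairs the lowest lay between -0.3 and 0.0069, so replicate numbers did not pair those libraries. Comparisons with only 2 pairs, among them STOP, every pTKO organ and every P1 organ, were too small to decide it. Their values ran from -0.34 in pTKO heart to 0.19 in P1 lung. With the replicate block, genes called numbered 2535 in pTKO heart (4042 without), 168 in brain (272), 1 in morula (16), 56 in P1 heart (349) and 1209 in P1 lung (421). In heart Mirg lost its call with the block (adjusted p = 0.0548). With crossed pairing, edgeR called 3034 genes in heart, 0 in kidney and 0 in liver. DESeq2 called 335 genes in morula, 2191 in blastocyst, 2764 in P1 kidney, 1085 in P1 lung, 1601 in P1 heart, 20 in batch 2 heart and 10 in STOP against TKO, and edgeR with no filter called 58 in morula, 951 in brain, 1107 in P1 heart and 708 in P1 lung. One fit of all organs called 0 in brain, 2629 in P1 heart and 148 in P1 lung. With 2 genotypes it was 1291 for TKO and 8133 for STOP against WT. Median-of-ratios scaling moved the median of all genes by at most 0.19, in morulae against 2-cell embryos.

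Per kilobase, maternal share differences in percentage points were -12.2 at the 2-cell stage, -17.8 in morula, 0.644 in brain, 65.7 in pTKO heart, 23.5 in pTKO kidney, 11.3 in batch 2 heart and -32.7 in P1 kidney. On TMM-scaled totals 75 of 186 group means moved by over 1 SD.

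Leaving out 1 library, members called ranged from 0 to 2 in TKO against WT, 0 to 1 in blastocyst against morula, 0 to 4 in pTKO heart, 0 to 3 in pTKO kidney, 0 to 4 in pTKO liver, 0 to 5 in pTKO lung, 0 to 4 in P1 kidney, 0 to 2 in P1 liver, 0 to 1 in P1 lung, 0 to 3 in the organ test of pTKO and 1 to 4 in that of pIR at P1. In every pTKO organ such a fit leaves 1 group with 1 library, so its count of calls is no test. Log2 changes that crossed 0 ranged as follows. Dio3 in TKO against WT was -0.18 to 0.19, Meg3 in STOP against TKO -0.64 to 0.14, and Rian in blastocysts -0.05 to 1.04. In pTKO kidney Dlk1 was -0.52 to 0.44. In pTKO lung Meg3 was -0.83 to 1.39, Rian -0.67 to 0.99, Dlk1 -2.55 to 0.13 and Rtl1 -0.78 to 1.84. In batch 2 liver Dlk1 was -0.10 to 0.05 and Rtl1 -0.06 to 0.29. At P1, Meg3 in heart was -0.25 to 0.28, Rian in heart -0.28 to 0.06, Dlk1 in heart -0.02 to 0.48, Dlk1 in liver -0.26 to 0.40 and Dlk1 in lung -0.30 to 0.01. For the difference of pIR effects between blastocyst and morula, Meg3 was -0.79 to 0.73 and Rian -3.62 to 4.82, and between E18.5 liver and heart Meg3 was -0.19 to 0.09 and Rian -0.06 to 0.21. Between batches in heart, Mirg was -0.10 to 0.36. Low counts of Rtl1, Dio3 and Mirg limit what could be seen of them.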
